A study of Rattus norvegicus with 192 samples.

Results

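Nervous tissue was compared with peripheral organs in rats that had breathed only air. The arrays were chosen by their labels: every Air array of brain stem, olfactory bulb, heart, kidney or lung was taken, with the 4 times after exposure pooled, which gave 81 of the 192 arrays of the series. For each gene, the mean of the brain stem mean and the olfactory bulb mean was set against the mean of the heart, kidney and lung means, and a gene was kept where both nervous tissues differed from the organs in the same direction. The 81 arrays were 16 of brain stem, 17 of olfactory bulb and 16 each of heart, kidney and lung, from 29 rat numbers, and the 15 Air arrays of blood were left out. All were male Sprague-Dawley rats, a laboratory stock with no engineered allele named in the labels, held for 25 min in a whole-body inhalation chamber at 0 ppm phosphine (PH3) and killed 1, 3, 6 or 24 h later under ketamine and xylazine. The study set these controls against rats that breathed PH3, a fumigant gas, at 660 ppm for 25 min (16500 ppm×min, given as 0.71 of the LCt50), and 80 arrays of the same 5 tissues from 30 PH3 rats are used here for a late comparison only. Neither the age of the rats nor which piece of each organ was ground is in the labels.

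Brain stem and olfactory bulb are made of neurons, which signal through vesicles released at synapses, and of glia: astrocytes, which clear transmitters and ions, oligodendrocytes, which wrap axons in myelin, and microglia, the resident macrophages. Their capillaries form the blood-brain barrier, and they hold little of the fibrous connective tissue, epithelium and lymphoid cells found in most other organs. Heart is chiefly muscle that burns fatty acids, kidney is chiefly transporting tubules, and lung is a thin epithelium over a dense bed of capillaries.

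Expression was read on Affymetrix rat arrays that probe the 3′ ends of transcripts. Values are log2 signals made with RMA, so a difference of 1 is a 2-fold difference in signal. Differences are nervous minus peripheral, with the SE of limma's fit. A probe set was called at a Benjamini-Hochberg adjusted p under 0.05 over all 31042 probe sets, with the same sign in both nervous tissues, and a gene was read from its brightest probe set. Genes whose 33 nervous arrays all lay above, or all below, all 48 organ arrays are described as separated. No detection call was used, so a level of 3 or 4 is not read as presence or absence. In ground tissue, fewer cells of a type and less RNA per cell cannot be told apart.

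Each tissue held its own markers. Myh6, the heavy chain of atrial and fast heart myosin, ran from 13 to 13.3 in heart and from 2.80 to 4.08 in the nervous arrays. Its median over all 48 organ arrays, of which heart gave 16, was 9.53, so it was not confined to heart. Cardiomyocyte markers in lung are described further on. Umod, the main urinary protein of the loop of Henle, was 12.5 to 12.8 in kidney, and Sftpc, a surfactant protein, was 13.5 to 13.7 in lung. Gfap, the filament of astrocytes, was 10.7 to 11.4 in brain stem and 9.61 to 10.3 in olfactory bulb. Every one of the 81 arrays correlated best with an array of its own tissue. Some libraries nevertheless stood apart: 6 arrays had more than 100 probe sets at least 2 log2 units above their tissue's median (the median array had 8), namely brain stem, heart and lung of rat 340 at 24 h, heart of rat 370 at 3 h, heart of 1 rat at 6 h and olfactory bulb of rat 400 at 3 h. The mean of 15 hepatocyte markers reached 11.9 in the heart of rat 340 against a heart median of 3.75, and 8.65 in the olfactory bulb of rat 400, where 7 nasal mucosa markers reached 11.1 against a median of 5.02. In the lung of rat 340, 10 skeletal muscle markers reached 9.97 against a median of 3.92. The part of these arrays in the results below was not tested as a cause. Without them, 9199 probe sets were called higher and 15624 lower, and 2626 and 1410 were separated. The kidney of 1 rat at 1 h is not among the 6, although its hepatocyte markers reached 8.88 against a kidney median of 4.63. The second highest arrays were at 7.74 for hepatocyte markers in olfactory bulb and at 8.98 for skeletal muscle markers in lung. Technical readings differed with the tissue: the 3′ minus 5′ index of control transcripts had medians from 0.185 in lung to 0.443 in olfactory bulb, and control probes without a target read 4.92 in heart against 3.71 to 4.11 elsewhere.

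Most of the measured genes differed between the average of the nervous tissues and the average of the organs. Over the 31042 probe sets, limma called 24851 (80.1%), 9210 higher (29.7%) and 15641 lower (50.4%), and 2541 (8.19%) and 1209 (3.89%) were separated. The direction was the same in both nervous tissues for 11261 of 13438 genes (83.8%). Both differences subtract the same organ mean, which builds in part of this agreement. Of all genes, 10970 were called (81.6%), 4075 higher in nervous tissue (30.3%) and 6895 lower (51.3%), and the median over all genes was -0.17. For sets chosen from these genes, 30.3% and 51.3% are therefore the shares to read a count against. A call compares averages, so a single organ can carry it. Both nervous means lay above all 3 organ means for 2571 of the 4075 higher genes (63.1%). Both lay below all 3 for 4021 of the 6895 lower genes (58.3%). With the requirement of a difference over 1 (limma's treat), 1736 genes were called higher (12.9%) and 2250 lower (16.7%). Separated genes were 1197 higher (8.91%) and 795 lower (5.92%). Without the 6 arrays that stood apart these were 1228 and 908.

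More genes were lower, also among differences over 1 (1904 genes higher and 2561 lower), while wide margins were more often on the higher side. The margin, which is the gap between the nearest nervous mean and the nearest organ mean, passed 1 for 953 higher genes and 606 lower genes. It passed 2 for 527 and 128, 4 for 184 and 6, and 6 for 39 and 0. The 1197 separated higher genes had a median difference of 2.68, and their median level was 4.79 in heart, 4.81 in kidney and 4.80 in lung against 8.63 in brain stem and 8.56 in olfactory bulb. The 795 separated lower genes had a median difference of -1.96. Their organ medians ran from 8.06 in kidney to 8.42 in lung, and the nervous medians were 6.00 and 5.98. The balance of directions moved with the scaling of the arrays. Subtracting each array's median shifted the median over all genes to -0.33 and left 54.5% of separated probe sets higher, against 67.8% as deposited.

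**Figure D1:**
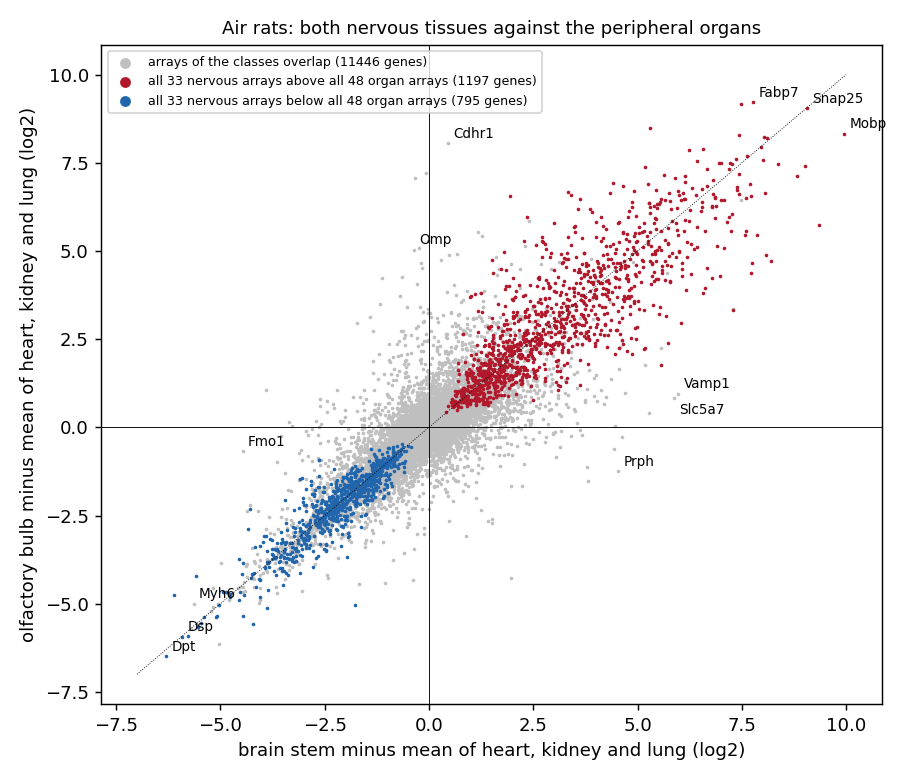
Difference from the mean of heart, kidney and lung in brain stem (x axis) and olfactory bulb (y axis), in log2 units, 1 point per gene (13438). Red marks the 1197 genes and blue the 795 genes whose nervous and organ arrays do not overlap. Most points lie to the lower left or upper right of 0, where both regions share a direction, and the red cloud reaches farther from 0 than the blue. Both axes subtract the same organ mean, which builds in part of this agreement.

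On the higher side, the 15 separated genes with the largest margins were Snap25, Mobp, Scg2, Tmem130, Cplx1, Fabp7, Stmn3, Sncb, Gad1, Apod, Pcp4, Nrsn1, Mbp, Caly and Scg3. Snap25, a SNARE protein that drives vesicle fusion, had levels (lowest, median and highest) of 12.6, 12.7 and 12.9 in brain stem and 12.5, 12.7 and 12.9 in olfactory bulb. In heart they were 3.05, 3.57 and 5.57, in kidney 3.05, 3.27 and 3.93 and in lung 3.08, 3.53 and 5.44. All nervous arrays lay far above all organ arrays, with a difference of 9.05 ± 0.098 (limma adjusted p = 5.43e-81). Mobp, a myelin protein of oligodendrocytes, was 10.5 to 12.9 (median 11.7) in the nervous arrays and 2.52 to 3.37 (median 2.75) in the organs. The brain stem arrays were the highest and the organ arrays stayed within a narrow low band, with a difference of 9.14 ± 0.049. Fabp7, a fatty acid binder of radial glia and astrocytes, was 10.7 to 12.8 (median 12.4) in the nervous arrays and 2.83 to 9.61 (median 3.12) in the organs. The groups did not overlap although the heart of rat 340 lay well above every other organ array, and the difference was 8.49 ± 0.16. Gad1, which makes the transmitter GABA, was 10.3 to 12.5 (median 12) against 2.43 to 5.37 (median 3.03). Olfactory bulb held the highest values, lung of 1 rat the highest organ value, and the difference was 8.32 ± 0.066.

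The rest of these 15 behaved alike. Scg2, a granin that packs neuropeptide granules, was 10.9 to 11.7 (median 11.2) against 2.59 to 3.89 (median 2.96), with a difference of 8.15 ± 0.048 (limma adjusted p = 4.76e-101) and nearly equal levels in both nervous tissues. Cplx1, complexin, which clamps the fusion machinery, differed by 7.95 ± 0.047, and Sncb, beta-synuclein of presynaptic terminals, by 7.65 ± 0.052. Mbp, the basic protein of compact myelin, was 12.4 to 14.1 (median 13.3) against 4.31 to 7.32 (median 5.49). All nervous arrays lay above all organ arrays, and the difference was 7.92 ± 0.1. Apod, a lipid carrier made by glia, Pcp4, a calmodulin regulator, Stmn3, a microtubule regulator of neurons, and Scg3, another granin, differed by 8.22, 7.85, 7.80 and 7.31. Caly, a vesicle protein linked to receptor endocytosis, Nrsn1, a membrane protein of neuronal vesicles, and Tmem130 differed by 7.25, 7.36 and 8.12. Over these 15 higher genes and the 15 lower genes described further on, the largest limma adjusted p was 7.18e-55, for Agpat2.

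**Figure D2:**
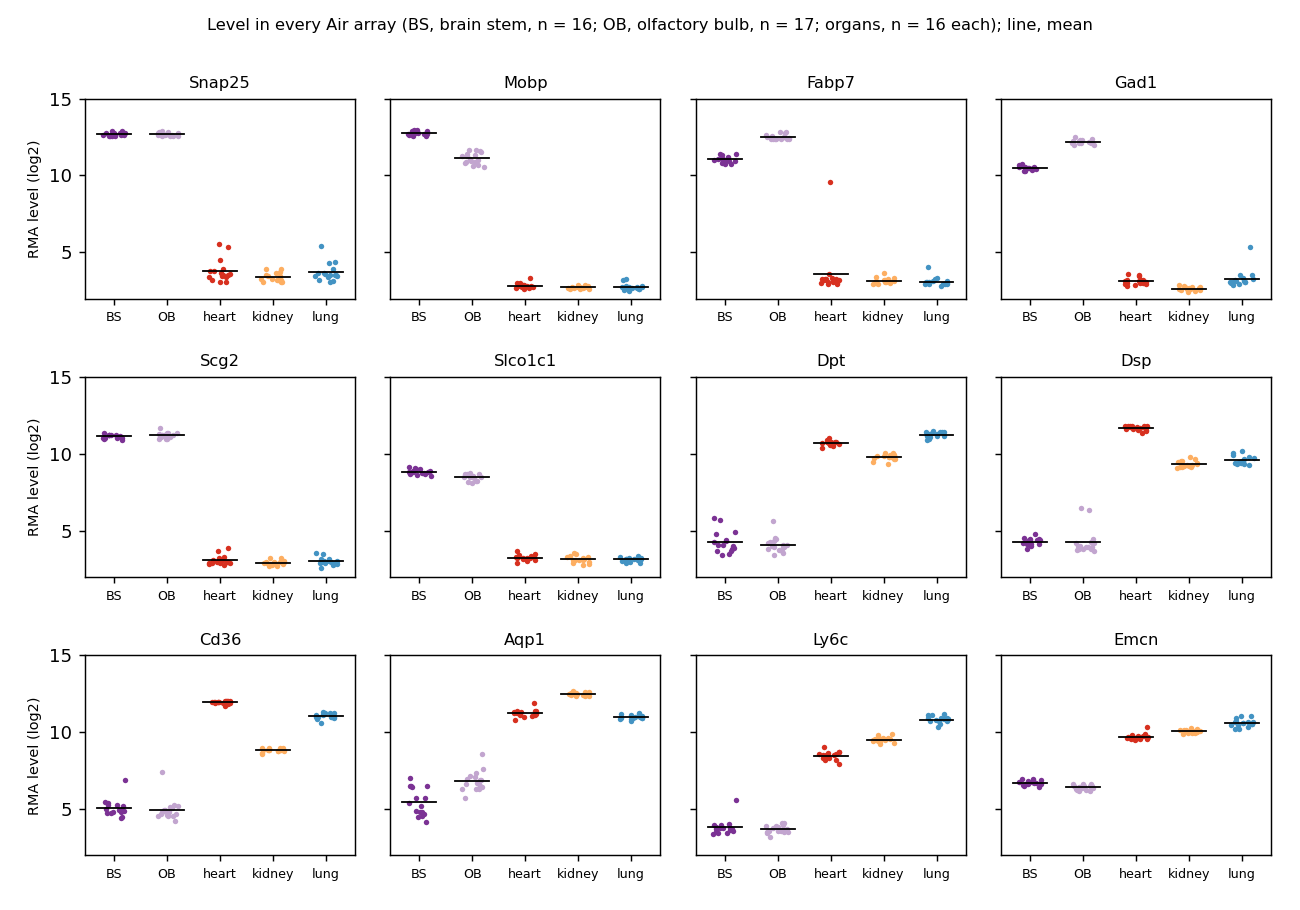
RMA level (log2, y axis) of 12 genes in each of the 81 Air arrays by tissue, 1 point per array, with a line at the tissue mean. Snap25, Mobp, Gad1, Scg2 and Slco1c1 keep all organ arrays under 6, Fabp7 does so except in the heart of rat 340, and Dpt, Dsp, Cd36, Aqp1, Ly6c and Emcn are low in both nervous tissues.

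Promoter sequence is shown for 6 separated higher genes, because they carry letters of RE1, the element bound by REST, a repressor that keeps neuronal genes silent in other cells. They are the separated higher genes with such a match and the largest differences. The 250 bases before the RefSeq start (GRCr8) were searched on both strands for the left part TTCAGCACC (reverse complement GGTGCTGAA) and for the right part, which is GGACAG, any base and GCC (reverse complement GGC, any base and CTGTCC). The capitals mark the matches, and the sequences run 5′ to 3′ on the gene's strand.
Scg2, chr9:88256890-88256958, minus strand: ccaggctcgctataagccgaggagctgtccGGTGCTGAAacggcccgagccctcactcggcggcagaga
Napb, chr3:156632518-156632587, minus strand: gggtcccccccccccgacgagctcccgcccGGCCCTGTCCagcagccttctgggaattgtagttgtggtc
Elavl4, chr5:130367769-130367837, minus strand: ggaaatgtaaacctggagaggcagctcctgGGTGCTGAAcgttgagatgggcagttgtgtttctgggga
Vgf, chr12:25277021-25277071, minus strand: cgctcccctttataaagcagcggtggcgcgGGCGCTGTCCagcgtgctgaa
Atp2b2, chr4:148763686-148763755, minus strand: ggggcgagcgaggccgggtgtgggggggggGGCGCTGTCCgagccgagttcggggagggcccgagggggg
Ptprn2, chr6:143582507-143582567, plus strand: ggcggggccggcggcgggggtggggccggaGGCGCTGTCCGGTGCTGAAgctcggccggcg

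Napb encodes a SNARE recycling factor, Elavl4 an RNA-binding protein of neurons, Vgf a granule peptide precursor, Atp2b2 a plasma membrane calcium pump and Ptprn2 a granule membrane protein. Their differences were 5.86 for Napb, 5.50 for Elavl4, 5.48 for Vgf, 5.27 for Atp2b2 and 4.90 for Ptprn2. Vgf, Atp2b2 and Ptprn2 fall outside the rule for named genes and were chosen after their values were seen, for these matches. The Ptprn2 promoter held exact matches of both parts side by side, with no base between them, the 1 promoter of 11057 tested genes to do so. A part with a changed letter was not counted by this search, so an element with an altered part is missed. Either part stood in 17 of 946 promoters of separated higher genes (1.8%), 4 of 643 of separated lower genes (0.622%), 104 of 11057 of all tested genes (0.941%) and 0.666% of all RefSeq promoters. A TATA box (TATAAA, both strands) stood in 6.87%, 7.78%, 8.04% and 12.9% of the same sets. These are matches of letters in a window and no measurement of binding. Separated higher genes were also longer, with a median of 32.6 kb against 22.9 kb for separated lower genes and 22.3 kb for all. Of the 1192 with a position, 77 lay on the X chromosome (6.46%), against 21 of 794 (2.64%) and 409 of 13377 (3.06%). These properties are given as descriptions, with no test.

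Structural genes of neurons were higher without exception in the list measured. Of 20 genes of the neuronal cytoskeleton and neuronal identity, 20 were called higher and 18 were separated, with a list median of 6.32 (all genes, -0.17). Nefl, the light neurofilament chain, was 10.9 to 13 (median 11.5) in the nervous arrays and 3.11 to 7.54 (median 3.70) in the organs, with brain stem above olfactory bulb and a difference of 7.98 ± 0.14. Nefh, the heavy chain of large axons, was 12.2, 12.9 and 13.2 in brain stem and 8.74, 9.30 and 9.51 in olfactory bulb, both above an organ maximum of 4.03. Its difference was 7.54 ± 0.046. Stmn3, given above, and Tubb3, the beta tubulin of neurons, with 7.25, belonged to the same group.

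The presynaptic release machinery was mostly higher. Of 24 genes of synaptic vesicle release, 21 were called higher, 2 lower, and 18 were separated, with a list median of 3.74. Syngr3, a vesicle membrane protein, and Napb had differences of 6.48 and 5.86, beside Snap25 and Cplx1. Syngr1, another synaptogyrin, went the other way on its brightest probe set, 4.50 to 5.50 (median 5.05) in the nervous arrays against 5.06 to 8.69 (median 6.62) in the organs. Its difference was -1.68 ± 0.055, heart was highest, and another probe set of Syngr1 read 0.172. Unc13a, which primes vesicles for fusion, was called lower by a small amount, -0.11 ± 0.04 (limma adjusted p = 0.00611). Its nervous and organ arrays overlapped, and the sign turned to 0.0431 without heart.

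Receptors and transmitter enzymes were higher on both the excitatory and the inhibitory side. Of 18 genes of glutamate signalling, 18 were called higher and 13 were separated, with a median of 2.85. Gria2, the AMPA receptor subunit that limits calcium entry, was 9.52 to 11.7 (median 11.4) against 3.10 to 4.10 (median 3.65), highest in olfactory bulb, with a difference of 7.05 ± 0.038. Slc17a6, a vesicular glutamate transporter, was 10.7, 11.1 and 11.4 in brain stem and 8.86, 9.05 and 9.47 in olfactory bulb. All its organ arrays lay under 4.81, the highest of them, and the difference was 6.08 ± 0.047. Gria4, another AMPA subunit, and Grm3, a metabotropic receptor, differed by 4.24 and 4.30.

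Of 17 genes of GABA and glycine signalling, 15 were called higher, 0 lower, and 13 were separated, with a median of 4.59. Glrb, the anchoring subunit of the glycine receptor, was 9.10 to 10.9 (median 9.87) against 2.45 to 3.26 (median 2.92). Brain stem was the higher region and the difference was 7.14 ± 0.038. Other probe sets of Glrb read 5.39 and, at a mean level of 2.5, -0.0144. Slc32a1, which loads GABA and glycine into vesicles, was 9.15 to 10.3 (median 9.67) against 2.83 to 3.64 (median 3.15), with nearly the same level in both regions. Its difference was 6.55 ± 0.041. Gabra5, a GABA receptor subunit, differed by 5.77 ± 0.051.

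Behind the synapse, 13 of 16 scaffold and kinase genes were called higher, 0 lower, and 7 were separated, with a median of 1.97. Camk2b, a calcium-dependent kinase of spines, was 9.26 to 11.3 (median 11) against 3.14 to 5.10 (median 3.88) and Shank1, a master scaffold, 9.10 to 10.2 (median 9.88) against 3.06 to 4.84 (median 3.43). In both genes the organ arrays stayed below every nervous array, with differences of 6.39 ± 0.057 and 6.09 ± 0.04. Camk2a, the sister kinase, was 10.7, 10.9 and 11.2 in olfactory bulb and 7.12, 7.46 and 8.28 in brain stem. Heart, at 6.54, 7.0 and 7.62, overlapped brain stem, so that Camk2a was called (difference 4.13 ± 0.059) but not separated. Nlgn1, a synaptic adhesion protein, differed by 4.0 ± 0.04.

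Of 20 voltage-gated channel genes of neurons, 17 were called higher, 1 lower, and 12 were separated, with a median of 3.16. Kcnc1, a potassium channel of fast-firing cells, was 7.92 to 10.4 (median 8.61) against 2.77 to 3.87 (median 3.21), with brain stem above olfactory bulb, and differed by 6.01 ± 0.039. Kcnc2, its relative, differed by 5.73, although another probe set read -0.225, Kcna1 by 5.52 and Scn1a, a sodium channel, by 5.28. Cacna1a, the P/Q calcium channel of terminals, was 4.18 to 4.76 (median 4.47) against 4.47 to 5.42 (median 4.81) on its brightest probe set. It was called lower at -0.38 ± 0.039, with overlap. A further probe set of Cacna1a read -0.124, and 3 others read 1.86, 0.879 and 1.3, so this direction depends on the probe set.

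Granins, peptide precursors and their processing proteins were all called higher: 18 of 18, with 15 separated and a median of 4.33. Chgb, a core granin, was 9.94 to 11.5 (median 10.4) against 2.92 to 3.92 (median 3.24), slightly higher in olfactory bulb, and differed by 7.22 ± 0.045. Scg5, a chaperone of peptide processing, was 11.9 to 12.4 (median 12.2) against 4.08 to 6.49 (median 5.37). Its highest organ arrays were in kidney and the difference was 6.75 ± 0.049.

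The list of splicing regulators of neurons, which also holds the repressors Ptbp1 and Rest, went both ways. Of 16, 10 were called higher and 4 lower, with 8 separated and a median of 2.01. Celf4 was 9.53 to 11.1 (median 10.7) against 2.93 to 3.94 (median 3.34), highest in olfactory bulb, with a difference of 6.99 ± 0.04, and Elavl2 and Rbfox3, markers of neuronal RNA processing, differed by 6.39 and 6.34. The lower members included Ptbp1, which represses neuronal exons in other cells, with -1.58 ± 0.028, and Rest, the repressor that binds RE1, with -1.06 ± 0.075. Rest was 3.19 to 4.13 (median 3.52) in the nervous arrays and 3.59 to 5.59 (median 4.64) in the organs, so the groups overlapped.

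Both main glial classes were higher. Of 15 astrocyte genes, 15 were called higher and 11 were separated, with a median of 5.33. Gfap was 9.61 to 11.4 (median 10.3) against 2.93 to 4.32 (median 3.45), higher in brain stem, with a difference of 7.05 ± 0.052. Aldoc, the aldolase of astrocytes, was 11.8 to 12.8 (median 12.1) against 4.05 to 6.45 (median 5.41), and S100b, a calcium binder of glia, 12.4 to 13.3 (median 12.7) against 4.22 to 8.42 (median 5.48). Both were separated, with differences of 7.06 ± 0.049 and 7.10 ± 0.12, and S100b was the more spread among organs.

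Of 19 oligodendrocyte and myelin genes, 18 were called higher, 0 lower, and 14 were separated, with a median of 5.38. Olig1, a transcription factor of the lineage, was 9.51 to 11.6 (median 10.0) against 2.92 to 3.58 (median 3.20) and differed by 7.34 ± 0.034. Bcas1, a marker of cells that are forming myelin, differed by 6.66. The list median against the organs was larger in brain stem than in olfactory bulb, as the plot of list medians shows. Fa2h and Ugt8, enzymes of myelin lipids, differed by 3.47 and 4.50, although another probe set of Ugt8 read -0.0188. They belong with 12 genes of gangliosides and brain lipids, of which 10 were called higher, 0 lower and 4 were separated (median 1.90). St8sia5, which adds sialic acid to gangliosides, and Cyp46a1, which clears cholesterol from neurons, differed by 3.27 ± 0.063 and 2.80 ± 0.05.

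Microglia and macrophage genes went both ways, 8 of 15 called higher and 5 lower, with a median of 0.31 and 1 separated. P2ry12, the purine receptor of resting microglia, was 6.52 to 8.23 (median 7.62) in the nervous arrays against 4.27 to 5.35 (median 4.84) in the organs. It was separated, with a difference of 2.75 ± 0.06. Cd68, a lysosomal protein of phagocytes, was 4.30 to 5.83 (median 4.95) against 5.82 to 9.43 (median 6.92), and Mrc1, the mannose receptor of tissue macrophages, 5.13 to 7.45 (median 6.07) against 4.85 to 10.0 (median 8.06). Lung was highest for both, the nervous and organ ranges of each overlapped, and the differences were -2.43 ± 0.072 and -1.74 ± 0.083. Tyrobp, a signalling adaptor of myeloid cells, had -1.06. With array medians subtracted the list held 7 higher and 7 lower, and its median was 0.0119 without heart and 0.0707 without kidney.

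Vessel genes divided by kind. Of 10 genes of brain endothelium, 8 were called higher, 1 lower, and 4 were separated, with a median of 1.83. Slco1c1, which carries thyroid hormone across the barrier, was 8.13 to 9.12 (median 8.67) against 2.80 to 3.66 (median 3.18), and the gap between the groups was wide (5.48 ± 0.04). Slco1a4, an organic anion carrier, was 9.45 to 10.1 (median 9.91) against 3.21 to 9.84 (median 4.86). Among organ arrays, the heart of rat 340 alone reached the nervous range, the gene was separated without the 6 arrays, and the difference was 4.79 ± 0.16 with them and 4.89 without. Mfsd2a, a lipid transporter that keeps the barrier tight, and Slc7a5, a carrier of large amino acids, differed by 2.75 and 2.55. Lsr, a junction protein of barrier endothelium and of epithelia, was lower, at -1.35 ± 0.1.

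By contrast, of 11 genes of endothelium in all vessels, 11 were called lower and 8 were separated, with a median of -2.46. Emcn, a sialomucin of capillaries and veins, was 6.18 to 6.94 (median 6.58) in the nervous arrays and 9.53 to 11.1 (median 10.1) in the organs. Eng, a TGF-beta co-receptor, was 5.23 to 6.70 (median 5.74) against 8.07 to 10.6 (median 9.01), and Pecam1, the adhesion molecule of endothelial junctions, 5.32 to 6.56 (median 5.87) against 7.85 to 10.4 (median 9.0). In all 3 genes lung was highest and no nervous array reached an organ array, with differences of -3.55 ± 0.041, -3.46 ± 0.054 and -3.19 ± 0.046. Plvap, which forms the diaphragms of leaky capillaries and is low at the blood-brain barrier, was called lower by 3.35 but was not separated: its brain stem levels were 5.73, 6.20 and 6.54 and those of heart 4.69, 5.31 and 6.28.

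Genes of the choroid plexus and meninges were mixed. Of 11 genes of choroid plexus and meninges, 6 were called higher, 3 lower, and 2 were separated, with a median of 1.67. The median was 0.751 without lung and 0.965 without heart, and in olfactory bulb alone it was 0.559. Ptgds, the prostaglandin D synthase of meninges and oligodendrocytes, was 12.4 to 13.5 (median 13.1) against 4.20 to 9.55 (median 6.97), with a difference of 6.24 ± 0.11. Slc13a4, a sulfate transporter of meninges, and Igf2, a growth factor made there, differed by 4.33 ± 0.11 and 3.18 ± 0.074. For Igf2, other probe sets read -0.331 and -0.238. Folr1, a folate receptor, and Kl, klotho, are made in choroid plexus and also in kidney, where Folr1 was 11, 11.3 and 11.5, and their differences were -1.89 and -1.95. Without kidney, Folr1 had 0.615.

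On the lower side, the 15 separated genes with the largest margins were Dpt, Dsp, Perp, Ly6c, Vnn1, Aqp1, Tcf21, Steap4, Cd36, Agpat2, Selenbp1, Gimap4, Gpx3, Clic2 and Vegfd. Dpt, dermatopontin, which binds collagen fibrils, had levels (lowest, median and highest) of 3.41, 4.07 and 5.84 in brain stem and 3.42, 4.0 and 5.61 in olfactory bulb. In heart they were 10.4, 10.7 and 11, in kidney 9.37, 9.83 and 10.1 and in lung 10.9, 11.3 and 11.5. Every organ array lay above every nervous array, with a difference of -6.39 ± 0.091 (limma adjusted p = 3.99e-72). Dsp, desmoplakin, which ties filaments to desmosomes, was 3.70 to 6.47 (median 4.16) in the nervous arrays and 9.11 to 11.8 (median 9.62) in the organs. Heart was highest, 2 olfactory bulb arrays lay above the other nervous arrays, and the difference was -5.93 ± 0.095. Perp, another desmosome protein, was 3.87 to 6.26 (median 4.44) against 8.97 to 10.5 (median 9.86) (-5.38 ± 0.066).

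The others of this set came from several cell types. Cd36, which takes up fatty acids, was 4.25 to 7.45 (median 4.91) against 8.62 to 12 (median 11.1). Heart held the highest values and the difference was -5.59 ± 0.093. Aqp1, a water channel of capillaries and proximal tubules, was 4.15 to 8.58 (median 6.48) against 10.8 to 12.7 (median 11.3), highest in kidney, with olfactory bulb above brain stem and a difference of -5.44 ± 0.11. Ly6c, a surface protein of monocytes and vessels, Vnn1, a pantetheinase, and Gimap4, a GTPase of lymphocytes, differed by -5.85, -5.23 and -5.22. Gpx3, a secreted glutathione peroxidase made by kidney, differed by -4.91, Steap4, a metalloreductase, by -4.27, and Selenbp1, a selenium-binding oxidase, by -4.32. Agpat2, which makes phosphatidic acid, Clic2, a chloride channel family protein, and Vegfd, a lymphatic growth factor, had -3.85, -4.17 and -3.84. Tcf21, a transcription factor of organ mesenchyme, was 2.72 to 3.38 (median 3.09) against 6.19 to 9.84 (median 7.46), highest in lung (-4.79 ± 0.081).

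Connective tissue and its regulators were lower as groups. Of 21 genes of interstitial matrix and fibroblasts, 0 were called higher, 20 lower, and 10 were separated, with a median of -2.67. Mfap4, of elastic fibres, was 5.76 to 6.67 (median 6.23) against 6.93 to 13.2 (median 10.7), highest in lung, and differed by -4.20 ± 0.068. Fbn1, fibrillin, and Col15a1, a collagen of vessel and muscle basement membranes, differed by -3.77 and -3.59. Of 12 smooth muscle and pericyte genes, 12 were called lower but 2 were separated, with a median of -1.92 (-1.20 without lung). Des, the desmin filament, was 4.56 to 6.53 (median 5.09) against 6.21 to 12.3 (median 9.26), highest in heart, and differed by -4.10 ± 0.068. Pdgfrb, the growth factor receptor of pericytes, was 4.66 to 5.70 (median 5.02) against 6.26 to 7.80 (median 7.10) (-2.08 ± 0.053), and Acta2, smooth muscle actin, 4.60 to 6.03 (median 5.05) against 5.48 to 10.5 (median 7.51) (-2.19 ± 0.13), with overlap between brain stem and kidney. Of 18 transcription factors of peripheral organs, 18 were called lower and 6 were separated, with a median of -2.29. Gata6, a factor of heart and lung mesoderm and endoderm, Tbx5, of heart and lung, and Meox2, of muscle and vessel walls, differed by -3.48 ± 0.061, -3.57 ± 0.071 and -3.38 ± 0.061. Of 20 transcription factors of neural cells, 15 were called higher and 2 lower, with 7 separated and a median of 1.88. Sox2, of neural precursors and astrocytes, differed by 4.30, Sox10, of oligodendrocytes, by 3.98, and Myt1l, of neurons, by 4.17. Another probe set of Myt1l read -0.0941. Nfix and Pou3f2 were called lower at -0.26 and -0.20, and Nfix turned to 0.281 without heart. Pou3f2 was near the bottom of the scale, at 2.69 to 3.13 in the nervous arrays and 2.74 to 3.70 in the organs, with overlap.

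Genes of antigen presentation and of white cells were lower too. Of 16 genes of antigen presentation, 1 was called higher, 14 lower, and 7 of the lower were separated, with a median of -1.99. Cd74, the invariant chain of class II molecules, was 6.99 to 10.2 (median 8.16) against 11 to 12.7 (median 11.6), highest in lung, with a difference of -3.70 ± 0.085. The class II chains RT1-Db1, RT1-Da and RT1-Ba differed by -3.86, -3.40 and -3.36. The highest nervous value of each was in the brain stem of rat 340 and overlapped heart, and all 3 were separated without the 6 arrays. Ctss, a protease that trims the invariant chain and is abundant in microglia, was the exception, 10.6 to 11.2 (median 10.9) against 8.24 to 10.2 (median 9.19), and was separated on the higher side (1.66 ± 0.039). Of 14 leukocyte genes, 0 were called higher and 13 lower, with a median of -1.32. Ptprc, the common leukocyte antigen, was 4.30 to 6.99 (median 4.87) against 5.23 to 9.35 (median 6.51) (-2.25 ± 0.09), and Lck and Cd3e, of T cells, differed by -1.95 and -1.77. Lung weighed on this list: without lung 3 were called higher and 9 lower, and the median was -0.383. Of 4 red cell genes, 4 were called lower. Alas2, the first enzyme of heme synthesis in red cell precursors, was 5.08 to 8.12 (median 6.01) against 4.84 to 9.76 (median 8.66), so the groups overlapped, with kidney low as well (-1.66 ± 0.12).

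Lists of 1 organ's own cells were lower largely through that organ. Of 15 cardiomyocyte genes, 14 were called lower and 1 higher, with a median of -3.87. Myl7, the atrial light chain, was 11.7, 12.7 and 13 in heart and 9.38, 10.4 and 12 in lung, against 2.86 to 3.35 (median 3.01) in the nervous arrays. The whole cardiomyocyte list averaged 5.53 to 8.89 in lung (median 6.82) and 12.3 to 12.6 in heart, against 3.51 to 3.72 in kidney and at most 4.59 in nervous tissue. The part of these markers in the lung levels of other muscle genes was not tested. Without heart the list held 2 higher and 11 lower (median -1.38). Ryr2, the calcium release channel of heart and of neurons, was the member called higher, at 1.46 ± 0.092: it was 11.4, 11.7 and 11.9 in heart, 8.29, 8.63 and 8.83 in brain stem, 8.44, 8.71 and 8.94 in olfactory bulb and 3.42, 3.76 and 4.25 in kidney. Heart was above nervous tissue and the other organs were below it, the difference was -0.258 without kidney, and another probe set read -0.18.

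Of 16 kidney tubule genes, 11 were called lower and 4 higher, with a median of -2.35, and without kidney 7 and 5 with a median of 0.0142. Napsa, an aspartic protease of kidney and lung, and Pck1, of glucose synthesis, differed by -5.59 and -4.17. The higher members included Calb1, calbindin, a calcium buffer of distal tubules and of neurons, which was 11.4, 11.8 and 12.3 in kidney and 8.75, 9.23 and 10.1 in brain stem, with heart and lung under 2.97. Calb1 differed by 2.56 and Slc4a4, a bicarbonate transporter of tubules and astrocytes, by 2.10. The highest organ array of Slc4a4 was at 11, above the nervous maximum of 10.6. Slc34a1, described further on, was called higher at 0.441 on its brightest probe set, while other probe sets of it read -2.92 and -1.50. Of 13 lung epithelium genes, 13 were called lower with a median of -3.17, and without lung 8 lower and 2 higher (median -0.275). Slc34a2, the phosphate transporter of alveolar cells, and Scgb1a1, the club cell secretory protein, differed by -4.24 ± 0.06 and -3.80 ± 0.24. Of 13 epithelial junction and keratin genes, 13 were called lower, with a median of -2.43 (-3.75 without heart). Krt7, a keratin of simple epithelia, was 9.72, 9.85 and 10.1 in kidney and 9.43, 9.80 and 10.1 in lung, while heart, at 3.74, 4.12 and 4.39, overlapped the nervous arrays (-4.24 ± 0.038). Epcam, an epithelial adhesion molecule, was 3.62, 4.27 and 8.79 in olfactory bulb, highest in the array of rat 400, which also held the highest nasal mucosa markers (-4.42 ± 0.17). Of 6 fat cell genes, 6 were called lower, with a median of -2.44. Ucp1, the uncoupling protein of brown fat, spread from 3.20, 7.21 and 11.8 in heart and 3.21, 8.65 and 11.7 in lung, and its difference was -4.36 ± 0.47. The level of the fat cell list reached 8.20 in heart, 7.82 in lung and 6.30 in kidney, and the part of these markers in the fatty acid genes was not tested.

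Enzymes of fuel use differed by pathway. Of 24 genes of fatty acid uptake and oxidation, 24 were called lower and 6 were separated, with a median of -1.80, and 23 stayed lower without heart (median -1.19). Lpl, which frees fatty acids from lipoproteins, was 6.13 to 7.98 (median 6.89) against 10.0 to 12.6 (median 10.9), highest in heart, with a difference of -4.33 ± 0.059. Cpt1b, the muscle gate of fatty acid entry into mitochondria, was 11.1, 11.4 and 11.4 in heart and 4.39, 6.31 and 9.19 in lung, against 3.35 to 4.67 (median 3.79) in nervous tissue (-4.72 ± 0.14). Fabp4, a fatty acid binder of fat cells and capillaries, differed by -5.59 ± 0.2.

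In branched-chain amino acid breakdown, the 2 transaminases that open the pathway had opposite signs. Of 16 genes of branched-chain amino acid and ketone use, 14 were called lower and 1 higher, with a median of -1.40. Bcat1, the cytosolic transaminase, was 11.3 to 12.5 (median 11.7) in the nervous arrays and 3.65 to 6.71 (median 4.84) in the organs, a difference of 7.03 ± 0.082 (limma adjusted p = 7.38e-79). Bcat2, the mitochondrial transaminase, was 5.83 to 6.58 (median 6.09) against 8.01 to 9.81 (median 8.90), a difference of -2.77 ± 0.042. Both genes were separated, in opposite directions. Mccc1 and Pccb, of leucine and propionate breakdown, differed by -2.08 and -1.86.

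Glycolysis leaned the other way: 12 of 16 genes were called higher and 4 lower, with 5 separated and a median of 0.78, and without lung 9 and 4 with a median of 0.338. Aldoc and Eno2, the neuronal enolase, led with 7.06 and 6.65. Ldha, the lactate dehydrogenase subunit of anaerobic tissue, was 9.70 to 11.1 (median 10.6) against 10.6 to 12.3 (median 11.1) (-1.03 ± 0.03), with olfactory bulb overlapping kidney and lung. Hk2, a hexokinase of muscle, had -1.08 ± 0.084. It was low in most arrays, at 3.80 to 4.38 (median 4.05) against 3.90 to 7.74 (median 4.36), with overlap. Subunits of the respiratory chain and ATP synthase differed little. Of 21, 16 were called lower and 1 higher, with a median of -0.23 beside -0.17 over all genes. This direction rested on heart: without heart 15 were called higher and 2 lower (median 0.195), and without lung 21 were lower (median -0.688). Sdha, the flavoprotein of complex II, was 11.6, 12 and 12.2 in heart, 11.7, 11.8 and 12 in kidney and 10.0, 10.3 and 10.8 in lung, with brain stem between them at 10.6, 10.9 and 11.1 (-0.50 ± 0.031). Of 17 glutathione and xenobiotic genes, 12 were called lower and 2 higher, with 2 separated and a median of -1.66, and without kidney 11 and 5 with a median of -0.841. Cyp2e1, an ethanol-oxidizing P450, had -4.12 ± 0.29, with a heart maximum of 12.1 in the array of rat 340 against a heart median of 5.02, and Gstm2, a glutathione transferase, had -3.36. Gpx4, which reduces lipid peroxides, and Gstm1 were called higher at 0.26 and 0.82, and another probe set of Gpx4 read -0.211.

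**Figure D3:**
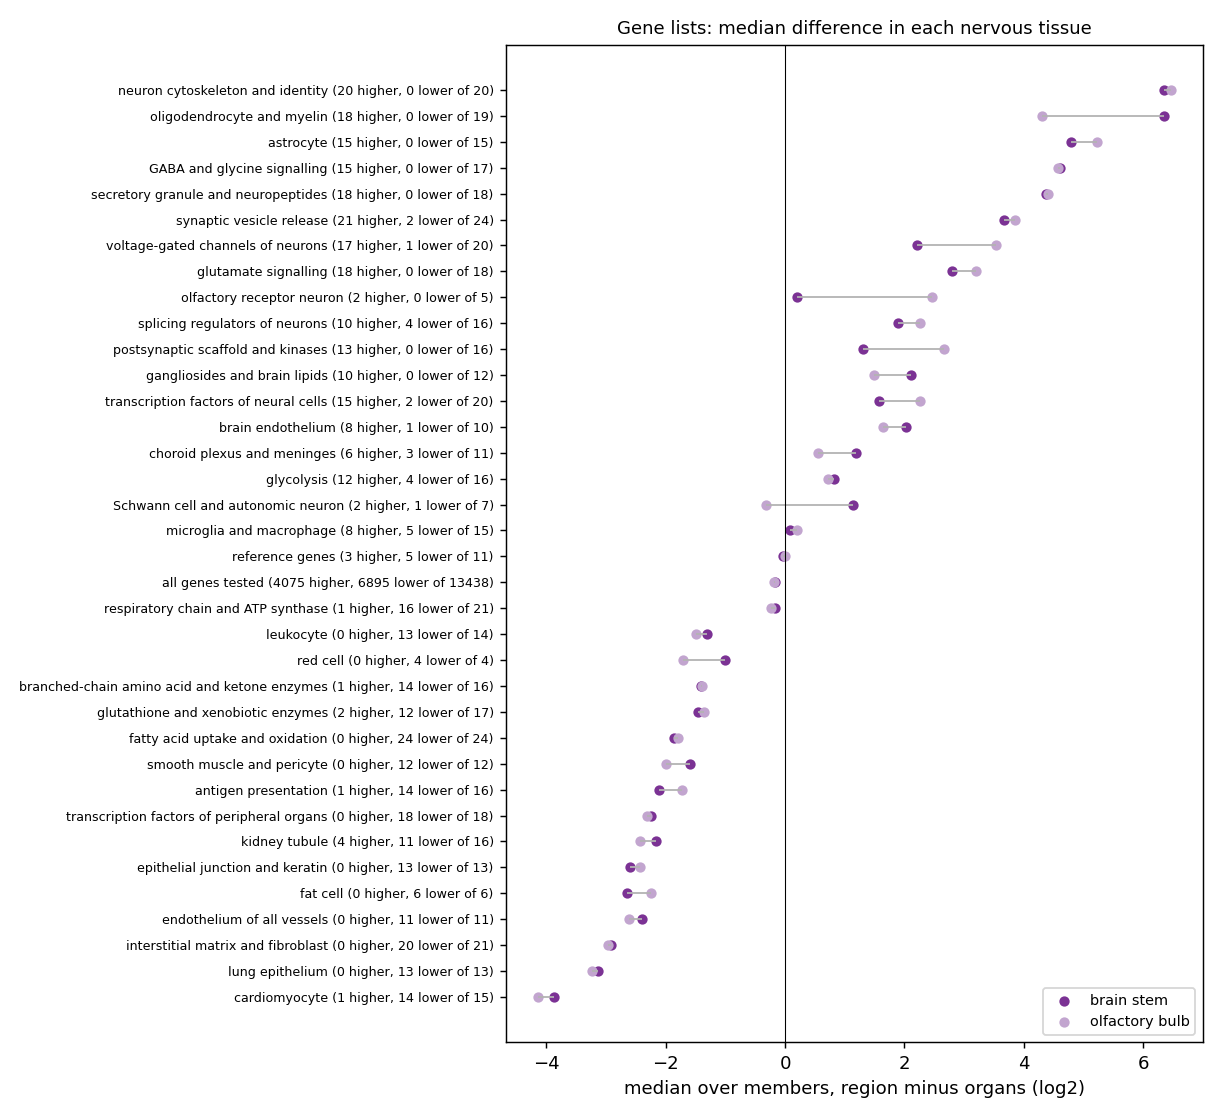
Median over the members of each gene list of the difference from the organs (log2, x axis) in brain stem (dark) and olfactory bulb (light), with the number of members called higher and lower. Neuronal and glial lists reach medians up to 6.32 over both regions, lists of heart, kidney and lung cells, of matrix and of general endothelium lie under -1, brain endothelium lies at 1.83, and all genes tested lie at -0.17.

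Within protein families, members listed as the nervous form and as the general or muscle form often had opposite signs. Among enolases, Eno2 had 6.65 and Eno3, of muscle, -3.07. Ckb, the brain creatine kinase, was 11.7 to 12.2 (median 12) against 9.01 to 10.6 (median 9.97) (2.12), while Ckm, of muscle, had -4.40 and Ckmt2, its mitochondrial partner, -4.56. The muscle forms Eno3, Ckm and Ckmt2 were not separated. Their nervous arrays ran from 3.92 to 5.22, 2.93 to 5.82 and 2.81 to 3.62. The organ arrays ran from 4.43 to 11.4, 3.14 to 12.6 and 2.81 to 12.9, so some organ arrays were as low as nervous ones. Snap25 and Snap23, the SNARE of general secretion, had 9.05 and -2.0. Snap23 was 6.04 to 7.61 (median 6.84) in the nervous arrays and 8.07 to 9.55 (median 8.88) in the organs, so it too was separated. The dynamins Dnm1 and Dnm2, which pinch off vesicles, had 4.52 and -0.74. Ptbp2 and Ptbp1 had 2.52 and -1.58. Cpt1c, the brain form, had 2.96, against -0.79 for Cpt1a and -4.72 for Cpt1b.

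Kinesins, synaptobrevins, oxidase subunits and glucose carriers also held members of opposite sign. The kinesins of axonal transport Kif5a and Kif5c had 3.77 and 5.27, and the general Kif5b -0.40, which turned to 0.195 without heart. Vamp2 and Vamp1, the synaptobrevins, had 2.44 and 3.46, with other probe sets at -0.305 and -0.206, and Vamp8, of general secretion, had -2.0. The oxidase subunits Cox6a1 and Cox6a2, general and muscle forms, had 0.34 and -3.83. Cox6a2 was not separated, at 3.33 to 6.06 in the nervous arrays and 3.08 to 13.2 in the organs. For the glucose carriers Slc2a3, of neurons, and Slc2a4, of muscle and fat, the values were 1.44 and -3.63. Aldolases and sodium pump beta chains did not divide by sign. Aldoc had 7.06 and Aldoa 0.30, both called higher. The sodium pump beta chains Atp1b2, of glia, and Atp1b1 had 4.99 and 1.12. Camk2d, the kinase of heart and other organs, had 0.53, but -0.114 without kidney and -0.136 on another probe set. The phosphofructokinases Pfkp and Pfkm had 2.34 and 1.46, with Pfkl at -0.59, and another probe set of Pfkm read -0.187.

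**Figure D4:**
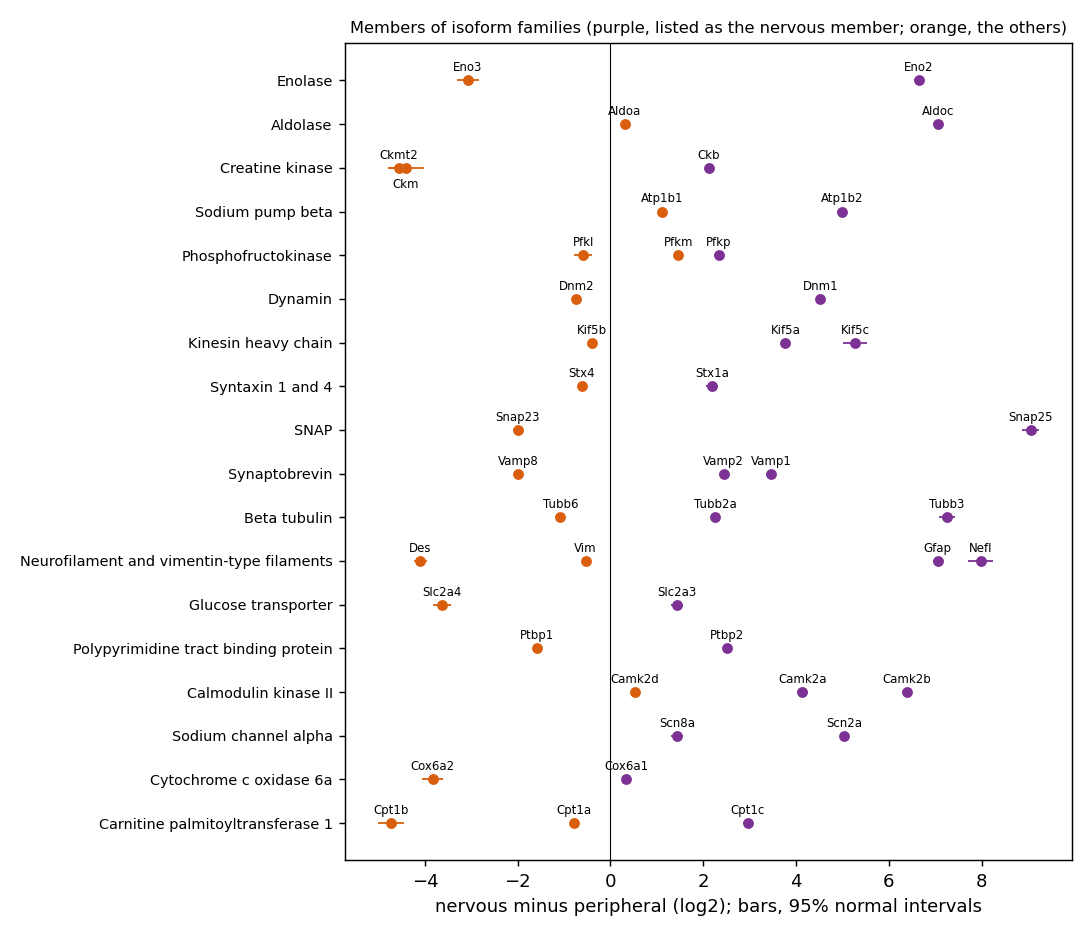
Nervous minus peripheral difference (log2, x axis) of family members in the 81 Air arrays, 1 family per line; purple marks the member listed as nervous, orange the others, and bars are 95% normal intervals where they exceed the point. In every family with both kinds the purple members lie to the right of the orange ones, but Aldoa, Atp1b1, Pfkm and Camk2d are also above 0.

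The nervous tissues also differed from each other. Brain stem minus olfactory bulb was called for 57.2% of probe sets and 8654 of 13438 genes (64.4%), and for 6626 of the 10970 called genes (60.4%). Its median size was 0.485 over the separated higher genes. The 4 called genes with the largest differences were Cdhr1, Slc5a7, Vamp1 and Scn4b. Cdhr1, a cadherin of photoreceptors and of mitral and tufted cells, was 11.6, 11.9 and 12.1 in olfactory bulb and 3.55, 4.25 and 4.81 in brain stem, a difference of -7.59 ± 0.11. Brain stem overlapped the organs, so its shared sign was small on that side. Slc5a7, the choline transporter of cholinergic neurons, was 7.91, 8.75 and 9.25 in brain stem and 3.02, 3.61 and 4.27 in olfactory bulb (5.04 ± 0.1). Vamp1 was 12.1, 12.5 and 12.7 and 6.96, 7.36 and 8.17 (5.02 ± 0.081). Scn4b, a sodium channel subunit of fast-firing neurons and of heart, was 10.1, 10.4 and 10.6 and 4.64, 5.29 and 7.46, with heart at 8.72, 9.05 and 9.47 (4.85 ± 0.13). Th, which makes dopamine and noradrenaline, was 8.09, 8.92 and 9.15 in olfactory bulb, where some interneurons use dopamine, and 5.12, 6.03 and 9.34 in brain stem. Omp, of olfactory receptor neurons, and Prph, a filament of motor and sensory neurons, were not kept, because their regions lay on opposite sides of the organs: they had -5.40 ± 0.089 and 5.77 ± 0.13.

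The tissue difference varied between times for few genes. An F test in limma asked whether the difference varied between 1, 3, 6 and 24 h and called 347 of 31042 probe sets (1.12%), or 132 of 13438 genes (0.982%). Without the 6 arrays it called 440 probe sets, of which 284 were shared. Of these 132 genes, 104 had 1 sign at all 4 times. The strongest was Gmppa, a regulator of mannose activation, at -1.10, -1.01, -1.40 and -1.76 in order of time (-1.32 ± 0.086 over all times, limma adjusted p of the F test 2.01e-06). It was lower in nervous tissue at every time. Eri3, an exonuclease family member, had 0.63, 0.56, 0.70 and 0.08 (adjusted p 3.95e-06). Slc34a1, the phosphate transporter of proximal tubules, had 0.69, 0.36, -0.46 and 1.07 (adjusted p 2.87e-06), so its sign changed at 6 h. The probe set read for Slc34a1 was 5.15, 5.58 and 6.18 in kidney, below olfactory bulb, while other probe sets of it read -2.92 and -1.50. Chmp2b, of endosomal sorting, had -0.05, 0.20, -0.05 and 0.49 (adjusted p 0.000426) at levels of 2.57 to 4.07 in all nervous arrays.

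The contrast was also taken in the PH3 rats, none of which gave an Air array. Among the 80 PH3 arrays, 9175 probe sets were called higher (29.6%) and 15611 lower (50.3%). Of the 9210 called higher in Air, 8795 were called higher in PH3, and of 15641 called lower, 14956. For genes these were 3919 of 4075 and 6672 of 6895. Of the separated genes, 1015 of 1197 higher and 421 of 795 lower were separated in PH3 arrays too. Snap25 had 9.05 ± 0.098 in Air and 9.09 ± 0.097 in PH3, Dpt -6.39 ± 0.091 and -6.23 ± 0.16, and Bcat1 7.03 ± 0.082 and 6.69 ± 0.093. Across the 13438 genes, which are not independent, the correlation of the differences was 0.9981. A test of the change itself, PH3 minus Air within the contrast, called 0 of 31042 probe sets in limma (0%), with 1855 at an unadjusted p under 0.05 where 1552 would be 5%. This test pools the 4 times and sets the nervous average against the organ average. A change with PH3 that both classes share, or that is limited to a single tissue or time, can therefore be missed. The smallest adjusted p was 0.0874 and was shared by 4 genes. Ddit3, a stress factor, had -0.50 ± 0.079 in PH3 and -0.09 ± 0.045 in Air. Nr4a1, an early response nuclear receptor, had -0.29 ± 0.2 and 0.70 ± 0.097. It was not kept in Air, since brain stem was below the organs and olfactory bulb above. Sct, secretin, had -0.73 ± 0.053 and -0.45, and Wdr74, of ribosome assembly, -0.07 ± 0.029 and 0.11.

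**Figure D5:**
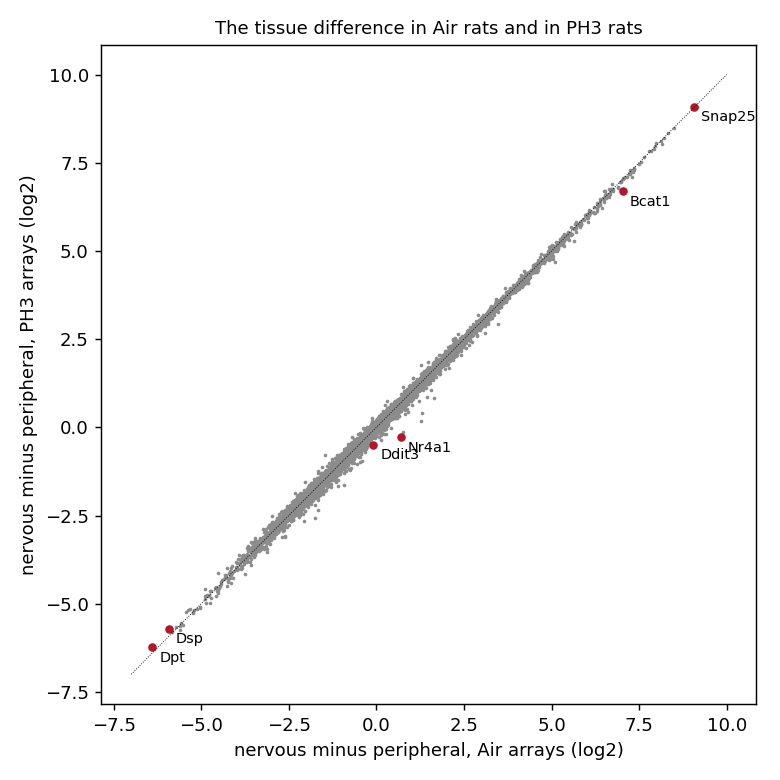
Nervous minus peripheral difference (log2) in the Air arrays (x axis) and in the PH3 arrays (y axis), 1 point per gene (13438), with the line of equality. Points follow the line from Dpt at -6.39 to Snap25 at 9.05, while Nr4a1 and Ddit3 lie below it without passing the test.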

How the data were processed

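RNA of 5 tissues of 29 Air rats was measured on 81 Affymetrix rat arrays. The authors deposited 1 log2 value per probe set and array, which per the submitters' processing notes came from RMA and Partek. The sources used here give no version. They also do not say which arrays entered 1 normalization, so differences between tissues may carry a scaling offset, and 3 other scalings were run. Arrays give no counts, and their number limits the precision. Values ran from 2.094 to 14.05.

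Of 31139 probe sets, 97 controls were left out. By the platform annotation 19063 named 1 gene, 572 several and 11407 are unnamed here. The 13438 genes were each read from the brightest probe set that names 1 gene, and 13382 matched RefSeq (GRCr8), which also gave the promoters.

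Tissue means were fitted with limma 3.58.1 in R 4.3.3, and the contrast was tested two-sided with Benjamini-Hochberg adjustment over all probe sets. Limma's SE pools the spread of all 5 tissues. Within a tissue, no rat gave more than 1 array. Same-numbered samples are tissues of 1 animal: over 111 pairs of arrays from 1 rat, the median correlation of deviations was 0.106 (-0.179 to 0.421), and the rat was fitted as a random block (correlation 0.0479) as an alternative. Only 6 of 17 olfactory bulb rats gave another tissue.

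Named genes are the 15 with the largest margins on each side, up to 4 members per list and up to 2 against its direction, listed family members, and up to 4 each for regions, times and PH3. The members and lists were chosen with earlier results of these data known. Lists for hepatocytes, nasal mucosa and skeletal muscle were added after the values were seen. On simulated arrays of 31042 probe sets, the contrast recovered 29, 46, 48 and 50 of 50 differences of 0.2, 0.5, 1 and 2, with 9 false calls. The test between times recovered 1, 26, 47 and 50 with 13 false calls, and that of PH3 minus Air 17, 46, 48 and 50 with 5. The simulated noise was normal and independent between arrays. It held no rat effect, no tissue difference other than the planted ones and no arrays that stood apart. These counts are therefore not error rates of the deposited arrays.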

Additional observations from a re-analysis of the deposited data

Results flagged for a closer look

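In 4 genes and in the count over all probe sets, the tissue difference varied between the Air times by limma's F test. The adjusted p of this test was 2.01e-06 for Gmppa, 2.87e-06 for Slc34a1, 3.95e-06 for Eri3 and 0.000426 for Chmp2b, and 347 probe sets were called in all. Gmppa kept its direction at all 4 times, while Slc34a1 and Chmp2b did not. Over the 347 probe sets, the highest difference fell at 24 h in 160 and at 3 h in 89, and the lowest at 6 h in 112 and at 24 h in 111. Among the 132 genes, each read from its brightest probe set, the highest fell at 3 h in 47 and at 24 h in 38, and the lowest at 24 h in 62.

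The 2 nervous tissues often differed from each other. The test of brain stem minus olfactory bulb called 6626 of the 10970 called genes (60.4%), beside 8654 of all 13438 genes (64.4%). Flagged here are the 4 called genes with the largest brain stem minus olfactory bulb difference. That difference was -7.59 for Cdhr1, 5.04 for Slc5a7, 5.02 for Vamp1 and 4.85 for Scn4b, in log2 units. These 4 were taken from genes with 1 direction in both tissues, which fixes their shared sign.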

How the results depend on the processing

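The counts of calls stayed within 1.5 times the reported ones under scaling, block and left-out rats. As reported, 9210 probe sets were called higher and 15641 lower. With the rat as a random replicate block they were 9215 and 15677, and 24834 of the 24851 reported calls were kept (99.9%). They were 7419 and 18772 with array medians subtracted and 9171 and 15019 with quantile normalization. With arrays centred on 11 reference genes they were 10390 and 13039. Counts of similar size did not always hold the same probe sets. Of the 24851 reported calls, 92.8%, 93.1% and 89.5% were kept in these scalings, in the same order. With array medians subtracted, 470 of them turned sign and 96 were called the other way. Leaving out 1 rat at a time gave 9166 to 9240 higher and 15559 to 15653 lower. Leaving out the 6 arrays that stood apart, an alternative chosen after seeing the data, gave 9199 and 15624, with 440 in the test between times, 23710 called the same way in PH3 arrays, 0 for PH3 minus Air and 13464 for brain stem minus olfactory bulb, and leaving out the heart array that correlates least gave 9182 and 15672. Within single times 84.5% to 87.3% of calls were kept. Counts moved where fewer probe sets or a stricter rule were used. With the brighter 50 percent of probe sets, 5794 were called higher and 6714 lower, 1664 were separated on the higher side, 218 passed the test between times, and 12089 were called the same way in PH3 arrays. With a difference over 1 required, 3787 and 3662 were called, and with a gap of 1 between groups 1164 and 178 were separated. Separated lower probe sets, 1209 as reported, were 2417 without heart, 1944 without kidney, 1846 without lung, 1824 with brain stem alone and 1889 with olfactory bulb alone, where fewer groups had to be cleared.

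Signs of single named genes turned in these settings, and the cause was not tested. On another probe set, values were 1.86, 0.879 and 1.3 for Cacna1a, -0.136 for Camk2d, -0.0144 for Glrb, -0.211 for Gpx4, -0.331 and -0.238 for Igf2, -0.225 for Kcnc2, -0.0941 for Myt1l, -0.187 for Pfkm, -0.18 for Ryr2, -2.92 and -1.5 for Slc34a1, 0.172 for Syngr1, -0.0188 for Ugt8, -0.206 for Vamp1 and -0.305 for Vamp2. With array medians subtracted they were -0.00917 for Chmp2b, -0.0704 for Ndufa4 and -0.0543 for Wdr74. Without heart they were 0.195 for Kif5b, 0.281 for Nfix and 0.0431 for Unc13a, without kidney -0.114 for Camk2d, 0.615 for Folr1 and -0.258 for Ryr2, and without lung -0.375 for Ndufa4 and -0.156 for Tfrc. Within 1 h they were -0.0457 for Chmp2b and 0.0331 for Unc13a, and within 6 h -0.0474 for Chmp2b and -0.463 for Slc34a1. Of 447 separated higher genes with several probe sets, 65 had a probe set called the other way, and of 230 lower ones 4. Levels near the bottom of the scale limit what the arrays can order.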
